A study of Mus musculus with 6 samples.

Results

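The 9 genes described here carry salt and magnesium transport, its control, or the identity of the cells that perform it, in the thick ascending limb and the distal convoluted tubule of the mouse kidney. They are Umod, Slc12a1, Kcnj1, Slc12a3, Trpm6, Egf, Pvalb, Wnk4 and Klhl3. The members were taken by gene name from the array files, which gave 14 of the 56605 distinct probes for transcripts on the array. Of those 14 probes, 13 passed the filter on dim probes, and each of the 9 genes kept at least 1 tested probe. RNA came from the renal cortex of male C57BL/6 mice. It was hybridised to 6 Agilent arrays of 1 colour, 3 with RNA of C3aR-/- mice, which lack the receptor for the complement fragment C3a, and 3 from wild-type (WT) mice. All mice belonged to the control arm of a diabetes study. They entered it at 8 weeks of age, ate chow with 10% of its calories from fat, received vehicle in place of streptozotocin after 4 weeks of diet, and were killed 20 weeks after induction. The sources used here do not give which part of the receptor gene was deleted, and the 6 arrays include no diabetic group.

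The thick ascending limb reabsorbs sodium chloride without water through the cotransporter NKCC2, with potassium returned to the lumen by the channel ROMK, and it secretes uromodulin, the most abundant protein of normal urine. The distal convoluted tubule follows it and takes up sodium chloride through the cotransporter NCC and magnesium through the channel TRPM6. The WNK kinases switch both cotransporters on through the kinases SPAK and OSR1, and the ubiquitin ligase of cullin 3 with its adaptor KLHL3 removes WNK4. The target of thiazide diuretics is NCC and that of loop diuretics is NKCC2.

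The results for Klhl3, the 1 gene called higher, and for Slc12a3 rest on 1 oligonucleotide of 60 bases each, and Wnk4 has 2 whose changes had opposite signs. These 4 probes are therefore shown here as the array files list them, 5′ to 3′. Pvalb, the 1 gene called lower, Umod and Kcnj1 also rest on 1 probe each, and those probes are not shown. No part of a probe shown is singled out, so all letters are in lower case.
Klhl3 probe, mm9 chr13:58110639-58110698, minus strand: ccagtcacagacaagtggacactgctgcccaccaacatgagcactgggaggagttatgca
Slc12a3 probe, mm9 chr8:96875636-96875695, plus strand: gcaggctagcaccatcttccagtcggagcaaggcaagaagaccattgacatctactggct
Wnk4 brighter probe, mm9 chr11:101138198-101138364, plus strand: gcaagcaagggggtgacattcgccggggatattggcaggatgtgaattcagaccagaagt
Wnk4 dimmer probe, mm9 chr11:101137794-101137853, plus strand: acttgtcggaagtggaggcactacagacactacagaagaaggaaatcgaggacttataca
The brighter Wnk4 probe holds 60 bases but covers 167 bases of the genome, so its target is interrupted there. The dimmer one lies upstream of it, with no overlap. No gene model on mm9 was used here, so the exon or untranslated region under each probe is not stated.

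Of the 9 genes, 1 was higher (Klhl3) and 1 was lower (Pvalb) in C3aR-/- mice by a threshold of 0.05 on the adjusted p, and 7 did not pass. Klhl3 entered the test only through its C3aR-/- arrays, since no WT array was well above background, so its call is a description. It drops out where all 6 arrays must be well above background and does not pass with normexp background correction (adjusted p = 0.201), and Pvalb is then the 1 call. In the same fit 12.3% of all 20553 genes passed (5.96% higher and 6.37% lower), so 2 of 9 is a count to be read against that background. Levels are log2 signals relative to the 75th percentile of the same array, and a change is the C3aR-/- mean minus the WT mean. Every adjusted p below comes from limma with Benjamini-Hochberg adjustment over all 30930 probes tested, two-sided. By the brightest probe, 6 of the 9 genes had a positive change and 3 a negative one. The median was 0.19, beside a median of 0.02 over all genes tested. Setting Klhl3 at its bound could not move that median, since its change was the highest of the 9 either way. With the filter on all 6 arrays, which drops Klhl3, the median was 0.14. The genotypes did not overlap for 6 of the 9 genes (4 higher, 2 lower), where 41.3% of all genes showed no overlap. At an unadjusted p under 0.05 the counts were 4 higher and 1 lower, where 17.5% of all genes were higher and 15.0% lower. Counted by probe, 2 of the 13 tested probes passed (1 higher, 1 lower), where 11.7% of all 30930 probes did (6.18% higher, 5.49% lower). The genotypes did not overlap for 6 of the 13, against 39.6% of all probes. The plot of levels by array shows the 9 genes on axes of equal span.

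**Figure D1:**
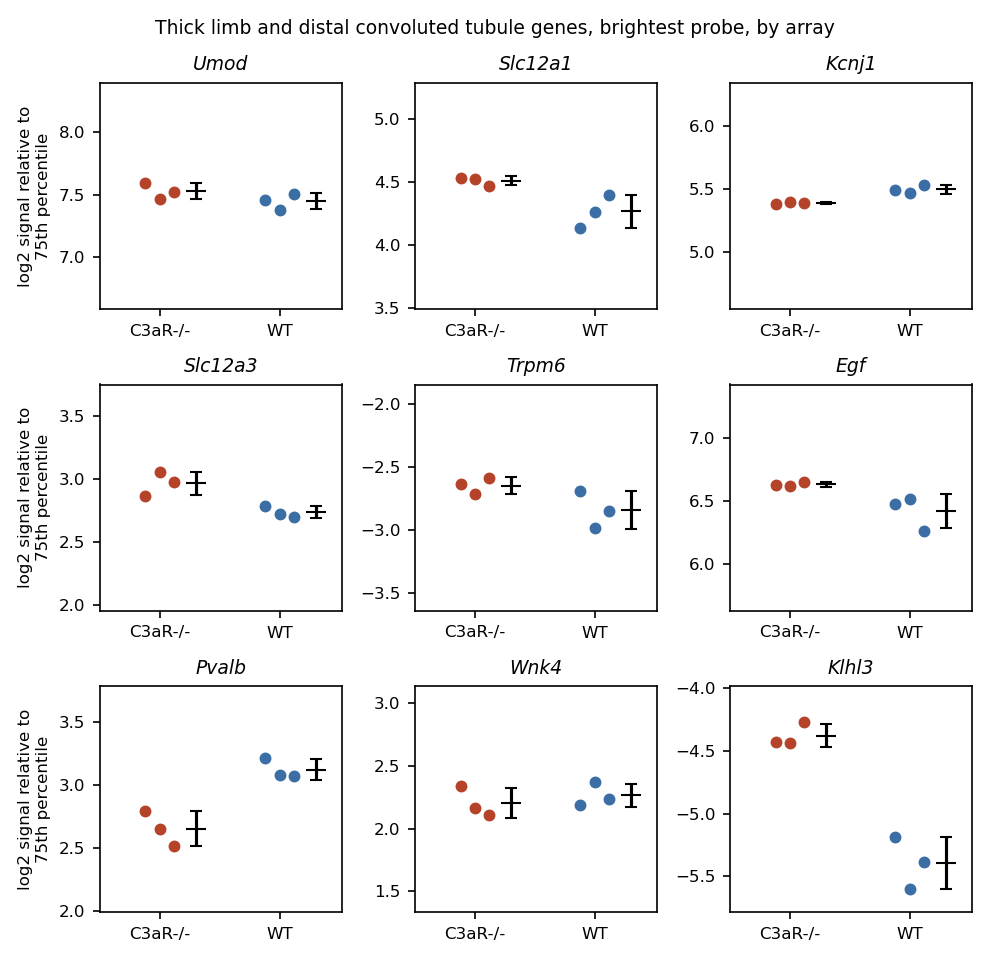
Level of the brightest probe of each of the 9 genes on each array, as a log2 signal from which the 75th percentile of that array was subtracted, with C3aR-/- arrays in red on the left and WT arrays in blue on the right. Horizontal marks are means and bars are SD over 3 arrays; each panel spans the same number of log2 units, and the widest gap between genotypes is that of Klhl3, whose WT points are not well above background.

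All 3 WT arrays were on slide 1 in scan 1 and all 3 C3aR-/- arrays were on slide 2 in scan 2, so slide and genotype cannot be told apart in any value below. The labels do not state that each array came from its own mouse, and the p-values then measure only the spread between these samples. Of 59305 transcript spots per array, 58.0% to 59.3% were well above background on C3aR-/- arrays and 56.5% to 57.6% on WT arrays, and none was saturated. On C3aR-/- replicate 1, 148 spots were marked as non-uniform, against 2 to 8 on the other 5 arrays. The single C3ar1 probe was well above background on 0 of 3 C3aR-/- arrays and 1 of 3 WT arrays, with levels of -5.71 ± 0.30 and -5.60 ± 0.57 (SD, n = 3 each). It gives no check of the genotype labels (exact permutation test, two-sided, p = 0.9). In bulk cortex, fewer cells of a type and less RNA per cell cannot be told apart.

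Among the genes of the thick ascending limb, the uromodulin gene Umod differed between genotypes by less than the highest and lowest arrays of a genotype differed. Its probe (NM_009470; mm9 chr7:126606529-126606588, minus strand) read 7.60, 7.46 and 7.52 in C3aR-/- cortex and 7.46, 7.38 and 7.50 in WT cortex. The genotypes overlapped, with means of 7.53 ± 0.07 and 7.45 ± 0.06 (SD, n = 3 each). The change of 0.08 (SE 0.07) had a 95% interval of -0.09 to 0.25, which is a fold between 0.939 and 1.19, and did not pass (adjusted p = 0.469). Its sign was negative after quantile normalisation (-0.11) and in the deposited log2 table (-0.04), so no direction is given for Umod.

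Slc12a1, which encodes NKCC2, had higher readings on every C3aR-/- array than on any WT array but did not pass the test. Its main probe (NM_001079690; mm9 chr2:125055224-125055283, plus strand) read 4.54, 4.52 and 4.47 in C3aR-/- cortex and 4.14, 4.26 and 4.40 in WT cortex. The lowest C3aR-/- array lay 0.07 above the highest WT array, and the WT arrays were spread more widely. Means were 4.51 ± 0.04 and 4.27 ± 0.13 (SD, n = 3 each), a change of 0.24 (SE 0.08), or 1.18-fold with a 95% interval of 1.03 to 1.36, at an adjusted p of 0.111. The array files give a second Slc12a1 probe, for the mBSC1-A4 isoform (U61381; mm9 chr2:125021044-125021103), that lies close to background. It read -5.03, -5.05 and -4.76 in C3aR-/- cortex and -5.02, -5.20 and -5.61 in WT cortex, and was well above background on 3 C3aR-/- arrays and 1 WT array. The genotypes overlapped and its change of 0.33 (SE 0.17) did not pass (adjusted p = 0.234). That change was 0.16 without WT replicate 3, and with normexp background correction it had the opposite sign, at -0.05.

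Kcnj1, which encodes ROMK, had lower readings on the C3aR-/- arrays but did not pass the test. Its probe (NM_019659; mm9 chr9:32206612-32206671, plus strand) read 5.38, 5.40 and 5.39 in C3aR-/- cortex and 5.50, 5.47 and 5.54 in WT cortex. All 3 C3aR-/- arrays were below all 3 WT arrays, and the C3aR-/- arrays lay within a narrow band of each other. Means were 5.39 ± 0.01 and 5.50 ± 0.04 (SD, n = 3 each), and the change of -0.11 (SE 0.06; 95% interval -0.25 to 0.03) did not pass (adjusted p = 0.243). It was -0.06 with median scaling and -0.18 after quantile normalisation. The processed signals before scaling overlapped, at 29680, 34860 and 30790 in C3aR-/- cortex and 30850, 29270 and 31820 in WT cortex. The separation of the genotypes for Kcnj1 thus depends on the scaling of the arrays.

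The genes of the distal convoluted tubule included the only call of a lower level among the 9. Pvalb encodes parvalbumin, a calcium-binding protein that in the mouse kidney marks the early distal convoluted tubule. Its probe (NM_013645; mm9 chr15:78021951-78022010, minus strand) read 2.79, 2.65 and 2.51 in C3aR-/- cortex and 3.22, 3.08 and 3.07 in WT cortex. The highest C3aR-/- array was 0.28 below the lowest WT array. Means were 2.65 ± 0.14 and 3.12 ± 0.08 (SD, n = 3 each), so Pvalb fell by 0.47 on the log2 scale (SE 0.09; 95% interval -0.70 to -0.24), which is 1.39-fold lower, at an adjusted p of 0.0327. The change was negative under all 16 alternatives to the processing, at -0.55 to -0.40, but it passed the threshold in 9 of them, and not with no filter on dim probes (adjusted p = 0.0801). Leaving out 1 array kept the call without C3aR-/- replicate 1 (adjusted p = 0.0394). The call was lost without C3aR-/- replicate 2 (adjusted p = 0.0876) or 3 (0.0954), and without WT replicate 1 (0.0896), 2 (0.0815) or 3 (0.0688).

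Slc12a3, the gene for NCC, is active in the same segment, and its change had the opposite sign to that of Pvalb. Its probe, shown above (NM_019415), read 2.87, 3.05 and 2.97 in C3aR-/- cortex and 2.79, 2.72 and 2.70 in WT cortex. The C3aR-/- arrays were all higher, by a gap of 0.08 between the nearest arrays. Means were 2.96 ± 0.09 and 2.74 ± 0.05 (SD, n = 3 each), a change of 0.23 (SE 0.07), or 1.17-fold with a 95% interval of 1.03 to 1.33, which did not pass (adjusted p = 0.0968). It was positive in all 16 alternatives and passed in none, with an adjusted p between 0.0628 and 0.223.

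The difference between 2 probes of the same array does not depend on how the array was scaled, and the pairs here were chosen after their values were seen, so they are given without a test. The value of Slc12a3 minus that of Pvalb was 0.08, 0.40 and 0.46 on the C3aR-/- arrays and -0.43, -0.35 and -0.37 on the WT arrays. On their own, Slc12a3 was higher and Pvalb lower on every C3aR-/- array than on any WT array, so these could not overlap. Their means of 0.31 ± 0.21 and -0.38 ± 0.04 (SD, n = 3 each) differed by 0.70, or 1.62-fold. For the thick limb, Slc12a1 minus Kcnj1 was -0.85, -0.87 and -0.92 on C3aR-/- arrays and -1.36, -1.20 and -1.14 on WT arrays. The lack of overlap was again fixed, since Slc12a1 was higher and Kcnj1 lower on every C3aR-/- array. The means of Slc12a1 minus Kcnj1 differed by 0.35, or 1.28-fold. For the 2 cotransporter genes, Slc12a3 minus Slc12a1 was -1.67, -1.47 and -1.50 on C3aR-/- arrays and -1.35, -1.54 and -1.70 on WT arrays. These overlapped, and their means differed by -0.02, with an SD of 0.11 on C3aR-/- arrays and 0.17 on WT arrays. That spread does not show that the distance was constant. Probes differ in brightness for reasons of their own, so the values describe changes and not which transcript was more abundant.

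**Figure D2:**
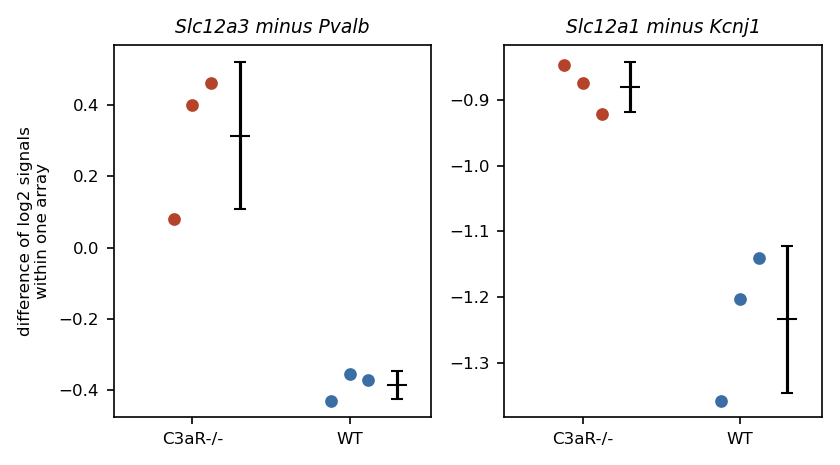
Difference between the log2 signals of a pair of probes on the same array, for Slc12a3 minus Pvalb (left panel) and Slc12a1 minus Kcnj1 (right panel), with C3aR-/- arrays in red on the left and WT arrays in blue on the right; marks are means and bars SD over 3 arrays. In both panels the C3aR-/- points lie above all WT points, as they must where the genes of a pair separate the genotypes in opposite directions. The panels have different scales.

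Trpm6, the apical magnesium channel of the distal convoluted tubule, overlapped between genotypes. Its main probe (NM_153417; mm9 chr19:18952126-18952185, plus strand) read -2.63, -2.72 and -2.59 in C3aR-/- cortex and -2.69, -2.99 and -2.85 in WT cortex. The change was 0.19 (SE 0.09; 95% interval -0.04 to 0.42; adjusted p = 0.215), and 0.10 with normexp and 0.12 without WT replicate 2. The other Trpm6 probe (AK080899) was not well above background on any of the 6 arrays, was not tested, and gives no fold.

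Egf encodes the precursor of epidermal growth factor, which the distal convoluted tubule and thick limb make in quantity and which, in mouse and human, raises TRPM6 activity. Its brightest probe (NM_010113; mm9 chr3:129380577-129380636, minus strand) read 6.62, 6.62 and 6.65 in C3aR-/- cortex and 6.48, 6.52 and 6.26 in WT cortex. All C3aR-/- arrays were higher, and WT replicate 3 lay below the other WT arrays. Means were 6.63 ± 0.02 and 6.42 ± 0.14 (SD, n = 3 each), a change of 0.21 (SE 0.09; 95% interval 0.01 to 0.42) that did not pass (adjusted p = 0.149). It was 0.14 without WT replicate 3, 0.0757 after quantile normalisation and 0.0844 as the mean of the Egf probes. The other Egf probes stand for Ensembl transcripts and gave opposite signs. The ENSMUST00000197713 probe had a change of 0.25 (SE 0.15; adjusted p = 0.294) and the ENSMUST00000198816 probe one of -0.21 (SE 0.15; adjusted p = 0.382), both with overlap between genotypes.

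Of the control genes, Klhl3 was the 1 gene called higher. Its only probe, shown above (NM_001195075), read -4.43, -4.44 and -4.27 in C3aR-/- cortex and -5.19, -5.60 and -5.39 in WT cortex, which are processed signals of 33.0, 38.2 and 38.0 in C3aR-/- cortex and 18.7, 13.7 and 16.4 in WT cortex. It was well above background on all 3 C3aR-/- arrays and on none of the WT arrays, so the WT level is known only as a bound. The means were -4.38 ± 0.09 and -5.39 ± 0.20 (SD, n = 3 each). Set against a bound for the WT level, the C3aR-/- mean of Klhl3 was 1.68-fold higher. In this bound each WT array counts with the dimmest level that still stood well above background on it, or with this probe's level where that was greater. The value of 1.68 holds for this scaling and takes no account of error in the C3aR-/- readings, so it is not a minimum fold. Those dimmest levels were -5.47 to -5.28 on C3aR-/- arrays and -5.18 to -5.09 on WT arrays. All 3 WT readings of the probe were below that level of their own array. The fitted change of 1.01 (SE 0.12; adjusted p = 0.0105, and 0.0232 to 0.0476 with 1 array left out) rests on those readings and is no measure of the fold. With normexp background correction, which adds an offset of 50 to each signal, the change was 0.18 and did not pass (adjusted p = 0.201). The probe is dropped where all 6 arrays must be well above background.

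Wnk4, the kinase that KLHL3 marks for removal, did not pass by either probe, and the changes of the probes had opposite signs. The brighter one (NM_175638) read 2.34, 2.16 and 2.11 in C3aR-/- cortex and 2.19, 2.37 and 2.24 in WT cortex, a change of -0.06 (SE 0.09; 95% interval -0.28 to 0.16; adjusted p = 0.667). The dimmer one, from the same accession, read 0.86, 0.59 and 0.51 in C3aR-/- cortex and 0.45, 0.53 and 0.29 in WT cortex, a change of 0.23 (SE 0.12; adjusted p = 0.236). Both overlapped between genotypes. The distance between the probes did not overlap: brighter minus dimmer was 1.48, 1.57 and 1.60 on C3aR-/- arrays and 1.74, 1.84 and 1.95 on WT arrays, with a difference of -0.29. The mean of both probes gave a change of 0.08, so no direction is given for Wnk4. The plot of changes by probe sets the 13 tested probes side by side.

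**Figure D3:**
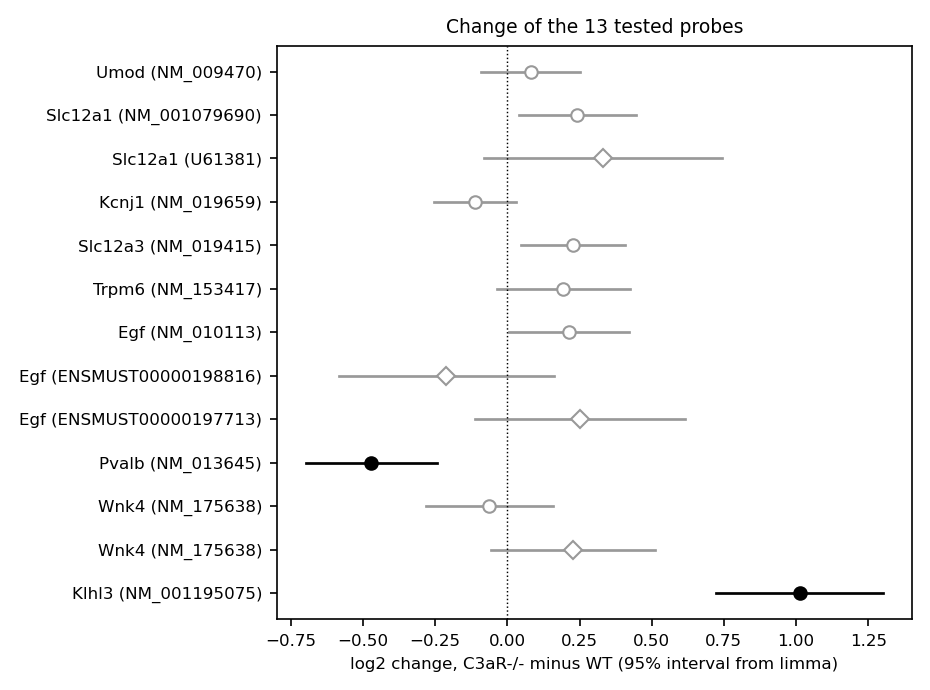
Change of each of the 13 tested probes, C3aR-/- minus WT, on the log2 scale with the 95% interval from limma; circles are the brightest probe of each gene, diamonds the other probes, and filled black marks passed the adjusted threshold of 0.05. Pvalb at -0.47 and Klhl3 at 1.01 are the filled points, and the fitted Klhl3 value is set against WT arrays that were not well above background.

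The wider set of genes that work in these segments was followed through 4 lists. Of 18 thick limb genes, all tested, 1 was higher, 1 was lower and 16 did not pass, which is 11.1% called against 12.3% of all genes. Their median change was 0.12. Cldn14, a claudin that in mice blocks calcium passage between thick limb cells, read -3.68, -3.64 and -3.66 in C3aR-/- cortex and -4.43, -4.30 and -3.98 in WT cortex. It rose by 0.58 (SE 0.12; adjusted p = 0.0363), with the C3aR-/- arrays close together and WT replicate 3 nearest to them. Ptger3, the prostaglandin E2 receptor EP3, read -0.51, -0.54 and -0.74 in C3aR-/- cortex and -0.10, -0.01 and 0.27 in WT cortex. It fell by 0.65 (SE 0.12; adjusted p = 0.0288), and its other probe had a change of -0.46. With normexp the Cldn14 change was 0.23 and did not pass (adjusted p = 0.0801), nor did it pass in the deposited table (0.0522) or with no filter on dim probes (0.0844). Ptger3 did not pass as the mean of its probes (0.0507) or with no filter (0.0737). Cldn14 kept its call without WT replicate 3 (adjusted p = 0.0261) and lost it without any of the other 5 arrays (0.0783 to 0.109). Ptger3 lost it without any 1 of the 6 (0.0542 to 0.0917), so the list count was 0 or 1 with an array left out.

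Of 18 genes listed for the distal convoluted and connecting tubule, 17 were tested and none passed in limma, against 12.3% of all genes. At an unadjusted p under 0.05, 3 were higher and 4 lower, where 17.5% and 15.0% of all genes were, and the median change was 0.10. The gene left out was Atp2b4, whose probes were too dim. Kl had the smallest p. It encodes klotho, the co-receptor for the hormone FGF23, and read 4.87, 4.81 and 4.80 in C3aR-/- cortex and 5.20, 5.10 and 5.03 in WT cortex, a change of -0.28 (SE 0.07; adjusted p = 0.053). Its genotypes did not overlap, but its other probe had a change of 0.24 and the mean of its probes one of -0.024. The brightest probe passed under 5 of the 16 alternatives (adjusted p 0.0264 to 0.0476 there), so Kl is given no direction. The list count was 1 without WT replicate 3 and 0 without any 1 of the other 5 arrays.

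Of 19 genes of the WNK pathway, 18 were tested and none passed in limma, against 12.3% of all genes. At an unadjusted p under 0.05, 2 were higher and 1 lower, where 17.5% and 15.0% of all genes were, and the median change was 0.05. Wnk3 was too dim to test. Nedd4l, a ubiquitin ligase that limits sodium channels and NCC, had the smallest p, with 4.43, 4.19 and 4.49 in C3aR-/- cortex and 4.06, 4.003 and 4.05 in WT cortex. Its change was 0.33 (SE 0.09; adjusted p = 0.0683), and its 3 probes ranged from 0.05 to 0.33. It passed with median scaling (adjusted p = 0.0481), while the mean of its probes gave 0.18 (adjusted p = 0.350). Nr3c2, the mineralocorticoid receptor, read 0.97, 0.99 and 0.79 in C3aR-/- cortex and 1.17, 1.14 and 1.19 in WT cortex, a change of -0.25 (SE 0.08; adjusted p = 0.0838). Neither gene overlapped between genotypes. The kinases, phosphatases and ligase subunits of the list thus held no call, and Klhl3 is not one of its genes.

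Of 16 genes of EGF and magnesium signalling, 13 were tested. By the brightest probe 3 passed with a positive change and 1 with a negative one (30.8% called against 12.3% of all genes), with a median change of 0.20, but the probes of 1 of the 3, Egfr, had opposite signs. Areg, Ereg and Tgfa, 3 further ligands of the EGF receptor, were too dim to test. Btc, which encodes the ligand betacellulin, read -2.62, -2.40 and -2.87 in C3aR-/- cortex and -3.74, -3.72 and -3.81 in WT cortex. It rose by 1.13 (SE 0.13; adjusted p = 0.00953), or 2.18-fold. It passed under all 16 alternatives, but with normexp the change was 0.59. The receptor gene Erbb3 read 3.20, 2.63 and 3.21 in C3aR-/- cortex and 2.19, 2.27 and 1.97 in WT cortex. It rose by 0.87 (SE 0.18; adjusted p = 0.0363), with C3aR-/- replicate 2 nearest to the WT arrays and a change of 1.27 by its other probe. Cnnm3, of the cyclin M family linked to magnesium transport, read 2.22, 2.07 and 2.17 in C3aR-/- cortex and 2.53, 2.59 and 2.50 in WT cortex, and fell by 0.39 (SE 0.07; adjusted p = 0.0257). The brightest probe of Egfr, the EGF receptor, read 2.75, 2.70 and 2.91 in C3aR-/- cortex and 2.33, 2.34 and 2.44 in WT cortex, a change of 0.41 (SE 0.08; adjusted p = 0.0308). Its 4 probes ranged from -0.30 to 0.41, and the mean of its probes gave 0.10 (adjusted p = 0.586), so the gene is given no direction. With no filter on dim probes, Erbb3 (adjusted p = 0.0844), Cnnm3 (0.0683) and Egfr (0.0776) did not pass. With 1 array left out, the list held 1 or 2 calls. Erbb3 passed without C3aR-/- replicate 2 (adjusted p = 0.0261) and in none of the other 5 (0.0832 to 0.110), and Cnnm3 passed without C3aR-/- replicate 1 (0.0453) and in none of the other 5 (0.0566 to 0.0854). Egfr did not pass in any of the 6 (0.0586 to 0.0933).

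**Figure D4:**
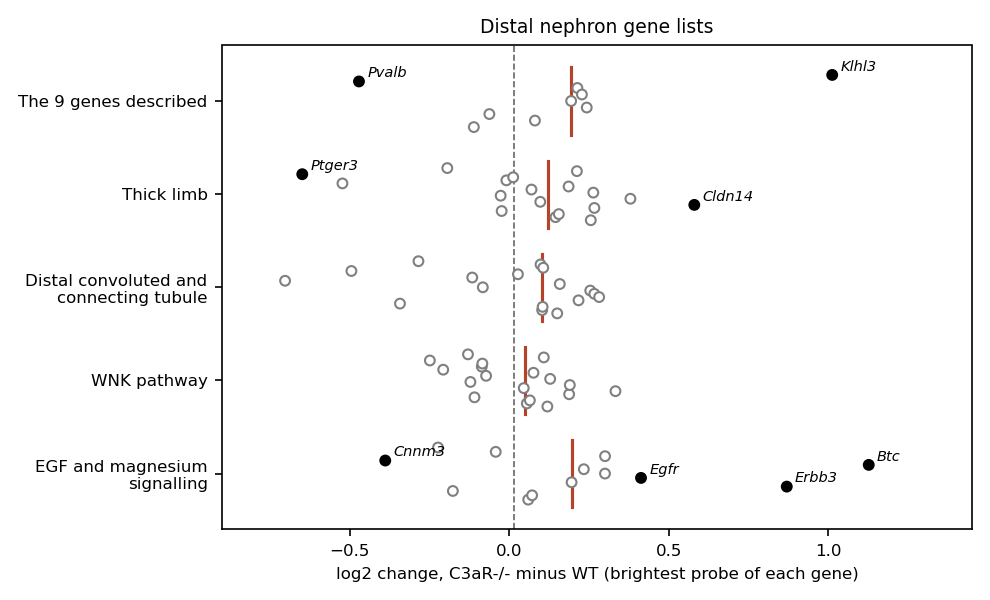
Change, C3aR-/- minus WT on the log2 scale, of the brightest probe of each tested gene in the 9 genes described and in the 4 wider lists; filled black points passed the adjusted threshold of 0.05 and are named, red bars are list medians and the dashed line is the median of all genes tested (0.02). The list medians lie between 0.05 and 0.20, and the lists for the distal convoluted and connecting tubule and for the WNK pathway hold no filled point.

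Markers of other cells of the cortex were measured on the same arrays, as the summed linear signal of each list in multiples of the 75th percentile. Their counts of calls stand beside 5.96% of all genes called higher and 6.37% called lower. A linear sum is set mainly by the brightest probes of its list. The 9 genes summed to 359 to 376 on C3aR-/- arrays and 342 to 349 on WT arrays. Umod and Egf, with mean log2 levels of 7.53 and 6.63 in C3aR-/- cortex, carry most of that sum. Neither passed the test, so the sum gives no direction for the group. Proximal tubule markers summed to 917 to 963 on C3aR-/- arrays and 777 to 847 on WT arrays, with 2 of 11 called higher, none lower, and a positive change in all 11. Principal cell markers of the collecting duct summed to 42.4 to 49.1 on C3aR-/- arrays and 36.1 to 36.2 on WT arrays, with 2 of 7 called higher and none lower. These were the water channel genes Aqp2 (0.88, adjusted p = 0.0050) and Aqp3 (0.40, adjusted p = 0.0463), named after their values were seen. Podocyte markers also summed higher, at 21.2 to 24.5 on C3aR-/- arrays and 16.9 to 20.4 on WT arrays, with 1 of 6 called higher. Markers of the inner medulla and thin limb were the most uneven list, at 31.0 to 62.1 on C3aR-/- arrays and 20.3 to 21.7 on WT arrays, with 1 of 4 tested genes called higher and Slc14a2 and Upk1b too dim to test. Leukocyte markers summed to 12.6 to 16.5 on C3aR-/- arrays and 15.3 to 16.9 on WT arrays, with 2 of 6 called lower. Endothelial markers (1 higher and 1 lower of 6), intercalated cell markers (1 higher and 1 lower of 7) and macula densa markers (1 higher of 3 tested, with Ptgs2 not well above background) gave calls in small numbers. The part of these differences in the results for the 9 genes was not tested.

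The genes most like Umod, Slc12a1 and Slc12a3 over the 6 arrays were found by Pearson's r of the brightest probe among 12967 named genes well above background on all arrays. They are a description with no test, since the arrays share slide and genotype and 6 points give many high values. For Umod they were Fzd5 (r = 0.992), Rhox7a (0.989) and Grb10 (0.986), and 24 genes had r above 0.95. For Slc12a1 they were Gadd45b (0.997), Bgn (0.996) and Vmn1r217 (0.995), with 93 genes above 0.95. For Slc12a3 they were Tnnt1 (0.997), Nt5c2 (0.996) and Sp140 (0.996), with 137 genes above 0.95. None of the 9 was among them. Between the members themselves, r was 0.63 for Slc12a1 with Slc12a3, 0.89 for Slc12a3 with Klhl3, -0.89 for Klhl3 with Pvalb and -0.95 for Kcnj1 with Egf. The values after the first are the strongest among all member pairs. Each gene in these pairs separated the genotypes, so r includes the difference between genotypes, and no r within genotype is given. The WT readings of Klhl3 were not well above background.

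The 4 genes whose values the results turn on were recomputed under each alternative to the processing. Slc12a1 and Slc12a3 kept a positive change and Pvalb a negative one in all 16, and Klhl3 kept a positive one in the 15 that tested it. Slc12a1 ranged from 0.16 to 0.31 and Slc12a3 from 0.17 to 0.28, and neither passed under any of the 16. With normexp Slc12a1 was at its lowest. Klhl3 passed in 14 of 15 and Pvalb in 9 of 16. The Klhl3 count is a description, since each of those calls rests on WT readings not well above background.

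**Figure D5:**
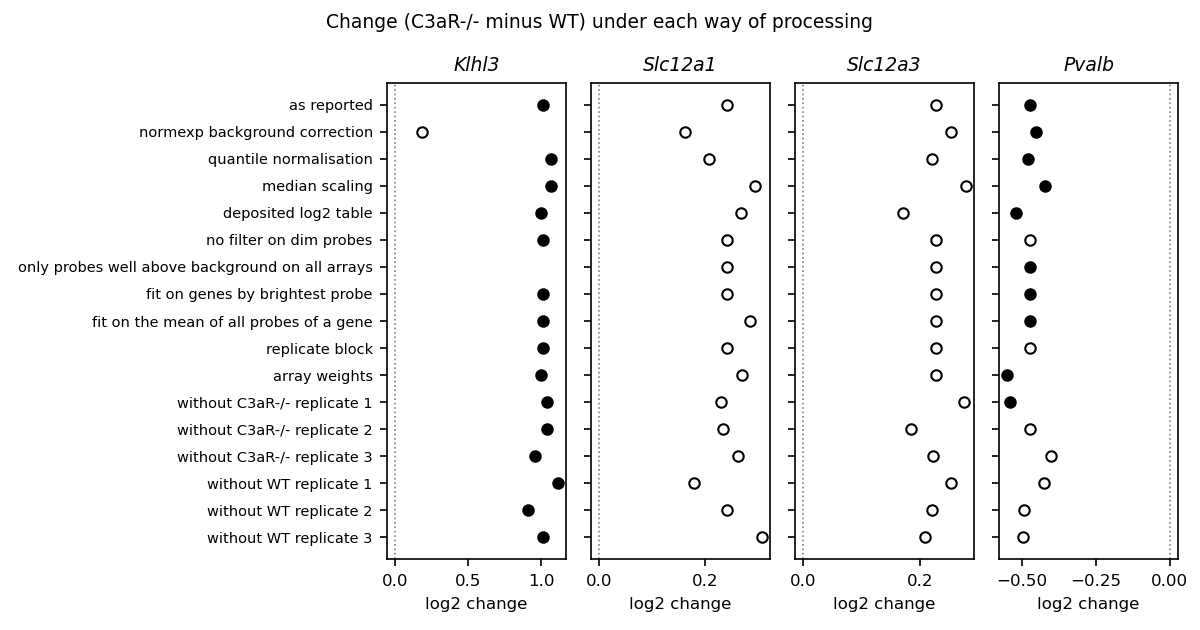
Change of the brightest probe of Klhl3, Slc12a1, Slc12a3 and Pvalb, C3aR-/- minus WT on the log2 scale, as reported (top row) and under each alternative (rows below); filled points passed the adjusted threshold of 0.05, the dotted line is no change, and the panels have different scales. The Klhl3 point at 0.18 is the normexp setting, and its empty row is the filter that drops its probe; the open points of Pvalb are the settings that lost its call.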

How the data were processed

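The 6 arrays (3 C3aR-/- and 3 WT) were grouped by the sample titles. Per the labels' protocols, 0.2 µg of RNA went into each Cy3-labelled cRNA. Agilent Feature Extraction 10.7.1.1 read each spot's background-subtracted intensity and set flags, per the file headers. A deposited log2 table of the same arrays (median 5.38 in every column; r of 0.995 to 0.996 with its own array), for which the sources used here do not give the authors' centring, served as an alternative. Coordinates are those of the array files (mm9); symbols of the other genes came from a RefSeq table of GRCm38.p6, which matched 32994 of 56605 probes.

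Each intensity was put on the log2 scale minus the array's 75th percentile (712 to 827 in C3aR-/-, 662 to 685 in WT). Control spots and outlier spots were left out (106 probes lost), and spots of a probe were averaged. Probes well above background on all 3 arrays of a genotype were kept. All 30930 were fitted with limma 3.58.1 in R 4.3.3 (lmFit, eBayes), checked on simulated data. The brightest probe stood for a gene. Of each wider list the text names up to 5 called genes, or the 2 with the smallest p. A gene that this rule names is not reported here. The members and lists were chosen with earlier results of these data known. The number of arrays limits the precision.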

Additional observations from a re-analysis of the deposited data

How the results depend on the processing

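Of the 16 alternatives, 9 took the count of called members among the 9 genes to 1, against 2 as reported: normexp background correction, no filter on dim probes, the filter on all 6 arrays, the replicate block, and leaving out 1 array in 5 of 6 cases (range 1 to 2). The call left was Pvalb with normexp and with the filter on all 6 arrays, and Klhl3 in the others. Counted by member probe, the calls were the same wherever the fit was by probe. Those fits tested 14 probes with no filter, 11 with the filter on all 6 arrays and 13 otherwise. The median change of the 9 genes, 0.19, was 0.10 with normexp, 0.0757 after quantile normalisation, 0.25 with median scaling, 0.14 with the filter on all 6 arrays, 0.0844 with the mean of all probes, and 0.12 to 0.19 with 1 array left out. The thick limb list held 4 calls with median scaling (3 higher), 4 with genes fitted by their brightest probe, 0 with no filter and with the replicate block, and 0 to 1 with 1 array left out. The distal convoluted tubule list held 2 with normexp and with array weights, 1 with quantile normalisation, median scaling, the deposited table, the filter on all 6 arrays or the gene fit, and 0 to 1 with 1 array left out. The EGF list held 1 with no filter, 1 with the replicate block, and 1 to 2 with 1 array left out. The WNK list held 1 with median scaling. The sign turned for Umod (quantile -0.11, deposited table -0.0433), the Slc12a1 isoform probe (normexp -0.0487) and Wnk4 (mean of probes 0.0822). Without the filter 37283 genes enter the adjustment, and an array left out removes 1 of 6 samples; the cause of the other shifts was not tested.

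Replicate numbers do not pair the arrays: same-numbered arrays had correlations of 0.04, 0.01 and -0.06 in their deviations from the group means, and 2 of 6 arrays correlated best with their own number. The replicate block called 2.14% of genes against 12.3%, with an adjusted p of 0.0640 for Pvalb. Leaving out 1 array called 2.13% to 6.44% and no filter 1.83%. The share of calls that were higher was 62.9% with median scaling (1677 higher, 991 lower), against 48.3% (1224 higher, 1309 lower); the median of all genes was 0.07 there. Klhl3 lies near background, where brightness limits the comparison.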
